A study of Mus musculus with 80 samples.

Results

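The comparison described here set the liver RNA of female Balb-C mice given PFESA-BP2 at 3.0 mg/kg-day against that of mice given 0.3 mg/kg-day, a 10-fold step in dose. PFESA-BP2, which the sample titles call Nafion BP2, is a polyfluorinated ether sulfonic acid known as Nafion byproduct 2. The mice were taken by their dose labels and are 8 of the 20 mice of the series, 4 per dose, and each mouse gave 1 library run over 4 lanes, so that 32 of 80 lane samples belong to the comparison. All mice were aged 10 to 12 weeks, carried no transgene or deletion named in the labels, and were gavaged once daily on 7 days. The 4 vehicle mice, for which the titles name DMSO and the design text deionized water, were not part of the test, and their levels are given only as a reference. Mice 13 to 16 received 0.3 and mice 17 to 20 received 3.0 mg/kg-day, numbered as their libraries are in the labels. The comparison asks which genes differed between these doses, since both groups received the compound.

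The liver senses foreign chemicals and fatty acids through nuclear receptors. The constitutive androstane receptor (CAR) and the pregnane X receptor (PXR) raise cytochrome P450 enzymes of the Cyp2b, Cyp2c and Cyp3a families together with conjugating enzymes and exporters, and NRF2 raises glutathione transferases and other enzymes of oxidant defence. PPARA, the fatty acid receptor, raises Cyp4a enzymes and the enzymes of peroxisomal and mitochondrial fatty acid oxidation. Activators of CAR and of PPARA are also known to drive hepatocyte division in mice, and perfluorinated acids as a class are known for PPARA activation in rodent liver.

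Levels are given as CPM, counts scaled to a common library total, which allow a gene to be compared between mice but not with another gene, since they are not divided by length. Counts per library summed to between 17537631 and 20485224. Differences were tested for 14422 of 22103 genes with edgeR's quasi-likelihood test, and "rose", "fell", "higher" and "lower" are used of genes whose Benjamini-Hochberg adjusted p was under 0.05 over all 14422 genes. Fold changes are log2 values at 3.0 minus 0.3 mg/kg-day with an approximate standard error (SE). All 12 hepatocyte markers looked for were measured, and 0 of them passed the test (1 at an unadjusted p under 0.05, 3 called by DESeq2 and 1 by limma-voom). Their summed level was nevertheless 163427 to 176284 CPM in the mice at 0.3 and 111865 to 154369 CPM in those at 3.0 mg/kg-day, with no overlap. Most of that sum was Alb, at 110500 to 122400 CPM at 0.3 and 68950 to 100800 CPM at 3.0 mg/kg-day. The median log2 fold change of the 12 was -0.13, and without overlap 2 lay lower and 1 higher at 3.0. Libraries 15 and 19, 1 in each group, stood apart from the other 6 on the leading component of the spread within groups (scores of 0.510 and 0.681, against at most -0.096 for the others). In the fits of all 20 mice a term was also tried for libraries 3, 11 and 23 beside these 2, and each of the 5 carries the third library number of its dose group. Fitting a term for libraries 15 and 19, or leaving them out, gave more calls, and counts without them are given below beside the main groups of genes. These libraries were picked because they stood apart in earlier results of these data. Leaving out or modelling libraries so picked lowers the spread within groups by itself, so the larger counts are not separate support for a change.

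Between 0.3 and 3.0 mg/kg-day, 742 genes changed (5.14% of those tested), of which 463 were higher (3.21%) and 279 were lower (1.93%) at the higher dose. The rises were larger than the falls. Of the higher genes 227 rose by 2-fold or more, against 21 of the lower genes, and the median log2 fold change was 0.98 for the higher and -0.57 for the lower genes. The median over all tested genes was 0.01. At an unadjusted p under 0.05 lay 3096 of the 14422 genes, and limma-voom called 683 of them. DESeq2 called 1289 of 22052 genes. Counts of these kinds in the lists below are to be read beside these totals. In 732 of the 742 genes the CPM of the 4 mice at one dose did not overlap those at the other, which was the case for 2098 (14.5%) of all tested genes, 7.07% with the higher and 7.48% with the lower values at 3.0 mg/kg-day. In a single fit with all 20 mice, 498 genes were called, 367 of them higher, and 433 of the 742 were among them in the same direction. Leaving out 1 mouse moved the count to 379 without mouse 13, 240 without mouse 14, 531 without mouse 15, 354 without mouse 16, 614 without mouse 17, 373 without mouse 18, 1891 without mouse 19 and 244 without mouse 20. Without both mouse 15 and mouse 19 it was 2603, of which 1454 were higher and 1149 were lower.

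**Figure D1:**
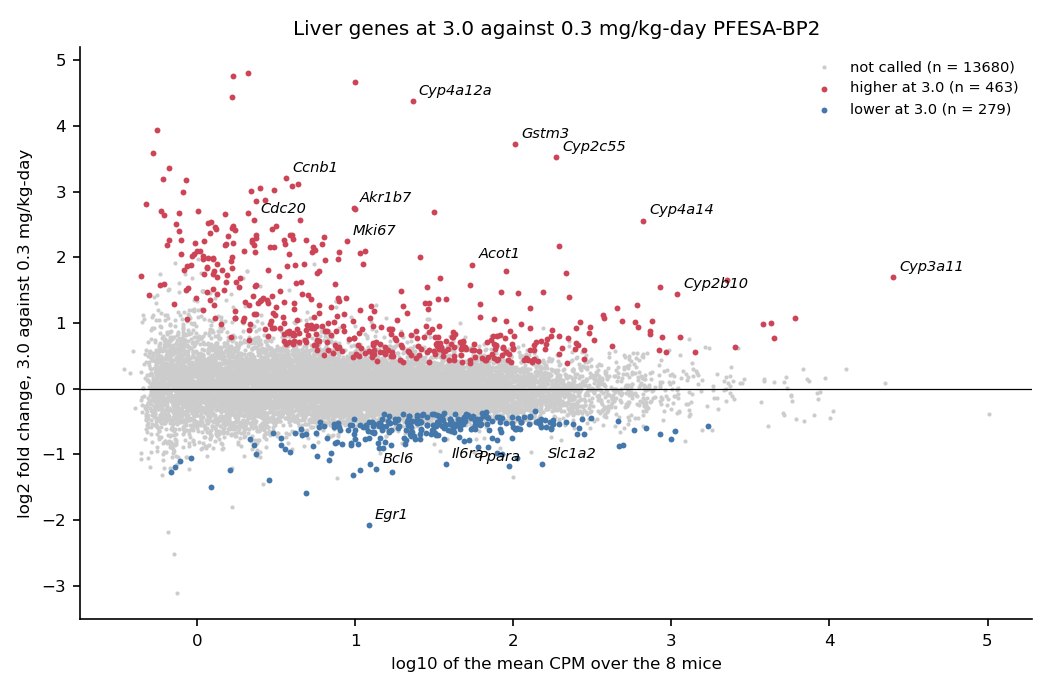
Each point is 1 of the 14422 tested genes, placed by the log10 of its mean CPM over the 8 mice and by its log2 fold change at 3.0 against 0.3 mg/kg-day. Red points are the 463 genes called higher and blue points the 279 called lower, and the red points reach farther from 0 than the blue ones.

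In 10 called genes the fold change was larger than the 10-fold step in dose. These were Cyp4a12a, Gstm3, Cyp2c55, Cyp2c65, Cyp2c66, Cdc25c, Krt4, Pnliprp1, Gm3776 and Gm26747, and 3 of them, Cyp4a12a, Gstm3 and Cyp2c55, had a mean of 10 CPM or more. Several of the genes named here have near-identical relatives (Cyp2c, Cyp3a, Cyp4a, Mup, Gsta, Gstm, Ces2 and Acot genes), and the sources used here do not say how reads shared between relatives were counted, so the split between such relatives is uncertain.

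Among CAR targets, 15 of 31 tested genes were higher and 0 lower, with a median log2 fold change of 0.79. The 16 not called included Cyp2a5, Cyp2b9 and Cyp2c29, at -0.47, -0.20 and -0.05, and Alas1 and Sult5a1, at 0.92 and 0.82. Cyp2c29 had means of 8856 and 8546 CPM at 0.3 and 3.0 mg/kg-day, against 2740 CPM in the vehicle mice. Cyp2c55 (chr19:39007019-39042693 in the GENCODE M21 annotation of GRCm38), a P450 that CAR and PXR activators raise steeply in mouse liver, measured 29.2, 26.4, 25.8 and 38.4 CPM in mice 13 to 16 and 214, 235, 424 and 506 CPM in mice 17 to 20. The lowest value at 3.0 mg/kg-day was thus several times the highest at 0.3 mg/kg-day, a log2 fold change of 3.52 (SE 0.29, adjusted p = 0.00023), while the vehicle mice measured 2.74 ± 0.77 CPM (SD, n = 4). Cyp2b10 (chr7:25897620-25926624), the classical CAR target, measured 441, 426, 760 and 704 CPM at 0.3 and 1288, 1081, 2067 and 1901 CPM at 3.0 mg/kg-day. Its groups did not overlap and its log2 fold change was 1.44 (SE 0.26, adjusted p = 0.0112), with 86.4 ± 23.2 CPM in the vehicle mice (SD, n = 4). 

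Gadd45b, a stress-inducible gene that CAR activators raise, measured 0.952, 0.867, 0.534 and 0.996 CPM at 0.3 and 6.75, 5.10, 6.27 and 10.4 CPM at 3.0 mg/kg-day, a log2 fold change of 3.09 (SE 0.27). Akr1b7, an aldo-keto reductase, rose by 2.75 and the secreted protein gene Tsku by 2.68 on the log2 scale. The carboxylesterases Ces2a and Ces2c, which hydrolyse ester drugs, rose by 1.65 and 1.29. Aldh1a1, which makes retinoic acid from retinal, rose by 0.98, and its call was lost without mouse 13 or mouse 14. Cyp26a1, the enzyme that breaks down retinoic acid and a member of none of these lists, rose from 10.2 ± 2.80 to 41.1 ± 10.9 CPM (SD, n = 4), a log2 fold change of 2.01. Between 11 and 16 CAR targets were called higher with any 1 mouse left out, and 18 without mice 15 and 19.

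Among PXR targets, 9 of 18 tested genes were higher and 0 lower, with a median of 0.55, and 4 of the 9 are also in the CAR list. Cyp3a11 (chr5:145854426-145879964), the main mouse PXR target, measured 10310, 9868, 14900 and 12250 CPM at 0.3 and 28560, 27950, 53400 and 44300 CPM at 3.0 mg/kg-day. Its log2 fold change was 1.70 (SE 0.27, adjusted p = 0.00637). The libraries that stood apart, 15 and 19, held the highest Cyp3a11 value in their groups, and all 4 mice at 3.0 mg/kg-day lay above all 4 at 0.3. Cyp3a59, Cyp3a25 and Cyp3a13 rose with it, by 1.40, 0.78 and 0.66. The PXR count was 5 without mouse 13 and also without mouse 14, and 10 higher with 1 lower without mice 15 and 19.

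**Figure D2:**
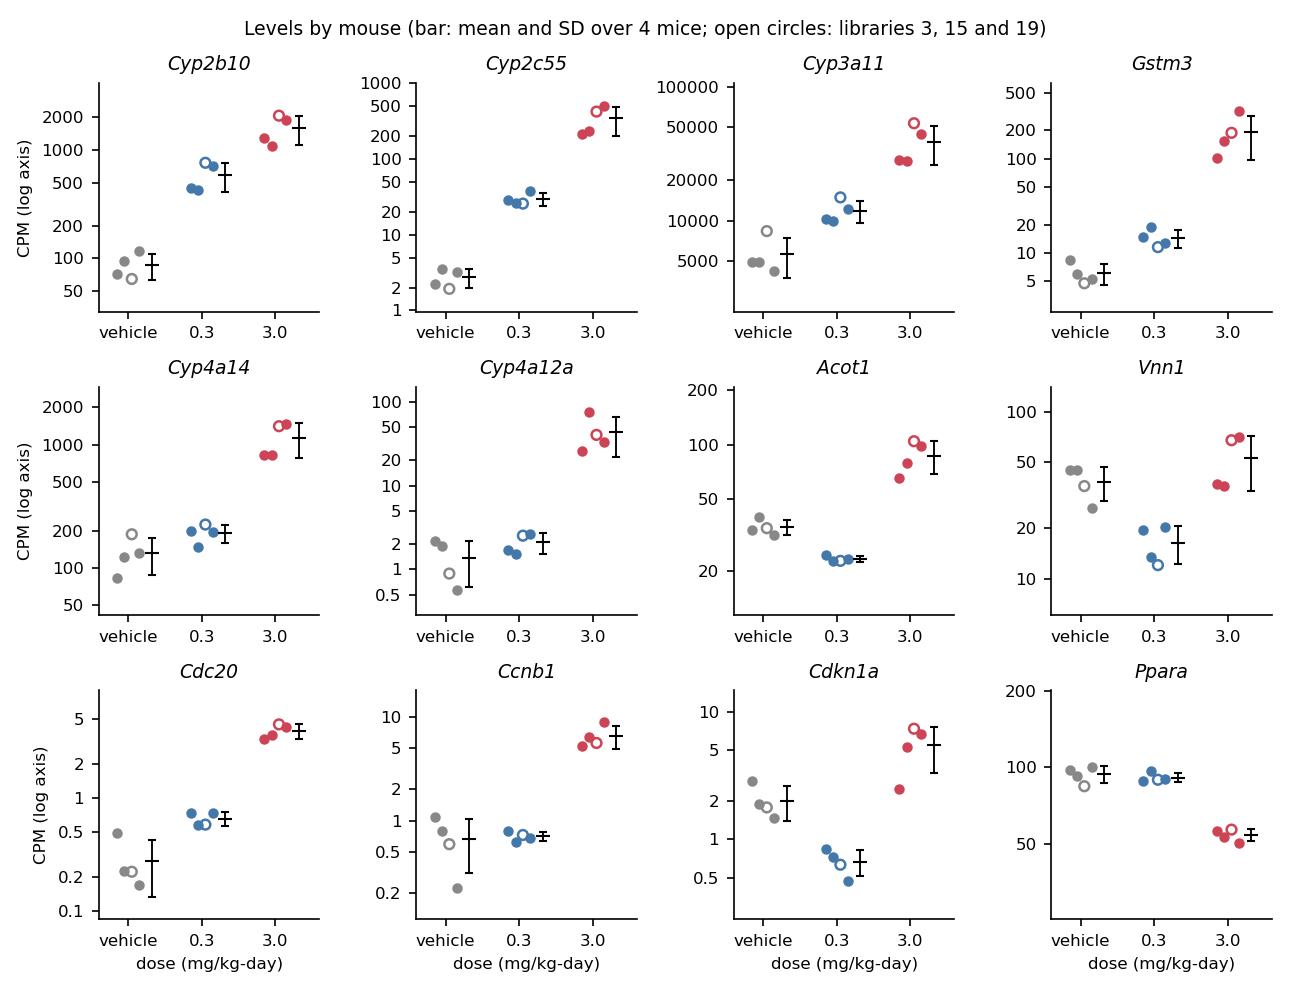
Each panel plots the CPM of 1 gene by mouse on a log axis for the vehicle mice (grey), 0.3 mg/kg-day (blue) and 3.0 mg/kg-day (red), with the mean and SD over 4 mice beside each group and open circles for libraries 3, 15 and 19. In all 12 genes the mice at 3.0 mg/kg-day do not overlap those at 0.3 mg/kg-day, Ppara being the only one of the 12 that is lower at 3.0.

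Some NRF2 targets and conjugating enzymes rose as well. Of 25 NRF2 targets, 10 were higher and 0 lower, with a median of 0.54, and 13 of 42 conjugation genes were higher and 0 lower, with a median of 0.36. The 10 were Ephx1, Ugdh and glutathione transferase genes, and all but Ephx1 and Gstp1 are also in the conjugation list. Gstm3, Gstm1 and Gsta2 are in the CAR list as well, so these counts are not separate from the CAR count. Of the 17 glutathione transferase genes of the Gsta, Gstm, Gstp, Gstt, Gstk and Gstz families in these lists, 10 were higher and 0 lower. Gstm3 (chr3:107963696-107969283) measured 14.9, 18.6, 11.5 and 12.7 CPM at 0.3 and 101, 152, 188 and 318 CPM at 3.0 mg/kg-day, a log2 fold change of 3.72 (SE 0.33, adjusted p = 0.00039). Gsta1, Gstm2, Gsta2, Gstp1, Gstm4 and Gstm1 rose by 2.45, 1.48, 1.36, 1.10, 1.03 and 0.88, and Gstt3, Gsta3 and Gstm6 by 0.74, 0.56 and 0.43. The 7 not called, Gstp2, Gstt1, Gsta4, Gstt2, Gstz1, Gstm7 and Gstk1, had log2 fold changes between 0.08 and 1.06. Gstm4 measured 58.5 to 60.0 CPM in the mice at 0.3, a narrow band, and 103 to 132 CPM in those at 3.0 mg/kg-day. Ephx1 (epoxide hydrolase) and Ugdh (UDP-glucose dehydrogenase, which feeds glucuronidation) rose by 1.13 and 0.77. Nqo1, a common NRF2 marker, measured 6.48 ± 1.25 and 8.93 ± 1.68 CPM (SD, n = 4) and did not pass the test (adjusted p = 0.164). Other NRF2 targets not called included Gclm, Hmox1, Txnrd1 and Gclc, at 0, -0.01, 0.08 and 0.31 on the log2 scale. Srxn1 and Prdx1, at 0.66 and 0.54, were not called either. The conjugation count was 7 without mouse 13, 6 without mouse 14, 7 without mouse 16 and 6 without mouse 20. It was 22 higher and 2 lower without mice 15 and 19, and the NRF2 count was then 15.

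The genes of the receptors themselves were not called. Nr1i3, which encodes CAR, measured 155 ± 32.4 CPM at 0.3 and 140 ± 12.3 at 3.0 mg/kg-day (SD, n = 4), and Nr1i2, which encodes PXR, measured 76.1 ± 16.6 and 88.2 ± 13.0 CPM. Nfe2l2, which encodes NRF2, measured 88.6 ± 19.8 and 92.9 ± 29.8 CPM. None of these 3 genes passed the test, with adjusted p of 0.589, 0.472 and 0.893, although Nr1i2 passed it without mice 15 and 19. Of 8 tested targets of the aryl hydrocarbon receptor (AhR), 0 were called by edgeR, DESeq2 or limma-voom, and 1 had an unadjusted p under 0.05. Cyp1a1 measured 1.31 ± 0.28 and 1.61 ± 0.47 CPM and Cyp1a2 measured 415 ± 73.1 and 389 ± 79.4 CPM (SD, n = 4). Among the 16 genes of haem synthesis and P450 electron supply edgeR called 0, with 3 at an unadjusted p under 0.05, DESeq2 called 2 and limma-voom 0. Alas1, the first enzyme of haem synthesis, had a log2 fold change of 0.92 (SE 0.28, adjusted p = 0.0825), and Por, the P450 reductase, one of 0.38 (SE 0.21). Of 21 transporters edgeR and limma-voom called 1 each (4.76%, against 5.14% of all tested genes by edgeR). The gene called by edgeR was the exporter Abcg2, higher by 0.59, a call lost without mouse 14, 16, 18 or 20. At an unadjusted p under 0.05 there were 7, DESeq2 called 2 higher and 3 lower, and 2 were higher and 2 lower without mice 15 and 19.

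PPARA targets were split by function. Omega oxidation, the P450 route for fatty acids, had 4 of 10 genes higher and 0 lower (median 0.57), with Cyp4a12a, Cyp4a14, Cyp4a31 and Cyp4a10 the genes called. The count was 4 or 5 with any 1 mouse left out and 6 without mice 15 and 19. Cyp4a14 (chr4:115486200-115496142) measured 199, 147, 226 and 197 CPM at 0.3 and 824, 825, 1409 and 1470 CPM at 3.0 mg/kg-day, a log2 fold change of 2.56 (SE 0.23, adjusted p = 0.00041). The vehicle mice measured 132 ± 43.2 CPM (SD, n = 4), close to the 0.3 mg/kg-day group. Cyp4a10 rose by 1.27, from 354 ± 38.0 to 853 ± 237 CPM (SD, n = 4). Cyp4a12a (chr4:115299046-115332815), which is also male-biased in mouse liver, measured 1.69, 1.54, 2.53 and 2.67 CPM at 0.3 and 26.3, 75.9, 40.4 and 33.3 CPM at 3.0 mg/kg-day. Its log2 fold change of 4.38 (SE 0.35, adjusted p = 0.00023) was the largest among called genes with a mean of 10 CPM or more, and the vehicle mice measured 1.38 ± 0.77 CPM.

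Acot1, a cytosolic acyl-CoA thioesterase, and Vnn1, a pantetheinase, had a level at 0.3 mg/kg-day below that of the vehicle mice and a level at 3.0 above it. Acot1 (chr12:84009490-84018371) measured 24.6, 22.8, 22.8 and 23.3 CPM at 0.3 and 65.3, 79.4, 105 and 97.9 CPM at 3.0 mg/kg-day, against 35.1 ± 3.49 CPM in the vehicle mice (SD, n = 4). The 4 mice at 0.3 mg/kg-day lay within a few CPM of each other, and the log2 fold change was 1.89 (SE 0.15, adjusted p = 0.00023). Vnn1 measured 16.4 ± 4.20 and 52.6 ± 19.0 CPM at the 2 doses and 37.9 ± 8.74 CPM in the vehicle mice (SD, n = 4), a log2 fold change of 1.69 (SE 0.26). No difference from the vehicle was tested. The kinase gene Pdk4, which holds back glucose oxidation, rose by 1.11, the lipid droplet gene Fitm1 by 1.68 and the retinol saturase gene Retsat by 0.80. Ppargc1a, a coactivator of oxidation genes, fell by 0.82. These 5 higher genes and 1 lower gene were the calls among 30 other PPARA targets (median 0.39), and there were 12 higher without mouse 19 and 17 without mice 15 and 19.

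Of 32 genes of peroxisomal oxidation 5 were higher and 1 lower, with a median of 0.16. The share called was 18.8%, and 15.8% in the mitochondrial list below, against 5.14% of all tested genes. The carnitine acetyltransferase gene Crat rose by 1.15, the thiolase gene Acaa1b by 0.78, Ehhadh (the bifunctional enzyme) by 0.64, Pex11a (peroxisome division) by 0.50 and Eci2 by 0.45. The thioesterase gene Acot3, also a female-biased gene, was lower, at 112 ± 15.9 and 56.2 ± 20.0 CPM (SD, n = 4), a call lost without mouse 13, 14, 15, 16, 18 or 20. The higher count was 3 without mouse 13 or 15, 1 without mouse 14, 16 or 20, and 2 without mouse 18. It was 13, with 2 lower, without mice 15 and 19. Of 19 mitochondrial oxidation genes 3 were higher (Decr1, Eci1 and Hadhb, by 0.68, 0.81 and 0.53) and 0 lower. That count was 1 without mouse 13, 14, 16 or 20 and also in the fit of all 20 mice. It was 5 without mouse 19 and 6, with 2 lower, without mice 15 and 19. Of 8 ketogenesis genes 0 were called by edgeR, DESeq2 or limma-voom, and 1 had an unadjusted p under 0.05.

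Ppara itself (chr15:85734983-85802819) was lower at 3.0 mg/kg-day. It measured 88.2, 97.0, 89.5 and 90.4 CPM at 0.3 and 56.2, 53.3, 56.9 and 50.6 CPM at 3.0 mg/kg-day, with 93.9 ± 7.09 CPM in the vehicle mice (SD, n = 4). The groups were tight and lay far apart, and the fall was 0.75 on the log2 scale (SE 0.09, adjusted p = 0.00138). The call held under all 20 alternative settings tried. Among 28 nuclear receptors and liver transcription factors 3 were lower and 0 higher (10.7% called, against 5.14% of all tested genes). The others were Prox1 and Srebf1, at -0.48 and -0.46. Both lost the call without mouse 13, 14, 16, 18 or 20, and 1 gene of the list was then lower. The lower count was 6 without mouse 19 and 1 in the fit of all 20 mice. DESeq2 called 6 lower and 2 higher, and 8 were lower and 2 higher without mice 15 and 19.

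Genes of cell division had the largest share of calls among the 40 process lists. Of 51 genes of mitosis and cytokinesis 46 were higher and 0 lower, all 51 having passed the filter on low counts, and the median log2 fold change was 2.10, with single genes between 0.66 for the centromere histone gene Cenpa and 3.58 for the phosphatase gene Cdc25c. Levels were low throughout, summing over the list to between 68.9 and 77.5 CPM in the mice at 0.3 and between 197 and 292 CPM in those at 3.0 mg/kg-day. The median log2 level of the list relative to the 0.3 mg/kg-day mean was between -0.05 and 0.08 in mice 13 to 16, and 1.26, 1.38, 1.68 and 1.67 in mice 17 to 20. Every mouse at 3.0 mg/kg-day was therefore above every mouse at 0.3. The count was between 38 and 45 with any 1 mouse left out, 45 without mice 15 and 19, and 44 in the fit of all 20 mice.

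The promoters of 4 of these genes are shown because they hold the letters of 2 sequence elements known for cell cycle genes. These are the core of the cell cycle genes homology region (CHR), spelt TTTGAA, and the CCAAT box, whose name spells its letters. Shown are the 4 called mitosis genes with the smallest p that hold both. Position in the window was not part of the search, and in Ccnb2 TTTGAA lies before all 3 CCAAT matches. Each run is the 250 bases before the RefSeq start of the gene in GRCm38.p6, 5′ to 3′ on the gene's strand, which is the minus strand for all 4, with every match in capitals, read on either strand. Neither motif contains the other. The windows are chr4:118437344-118437593 for Cdc20, chr9:70421555-70421804 for Ccnb2, chr10:69352913-69353162 for Cdk1 and chr2:129297213-129297462 for Ckap2l.
Cdc20: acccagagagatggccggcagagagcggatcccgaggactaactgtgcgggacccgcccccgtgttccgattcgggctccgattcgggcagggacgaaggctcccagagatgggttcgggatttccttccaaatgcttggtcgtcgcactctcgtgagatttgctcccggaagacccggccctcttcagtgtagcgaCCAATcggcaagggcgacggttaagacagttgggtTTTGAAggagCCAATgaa
Ccnb2: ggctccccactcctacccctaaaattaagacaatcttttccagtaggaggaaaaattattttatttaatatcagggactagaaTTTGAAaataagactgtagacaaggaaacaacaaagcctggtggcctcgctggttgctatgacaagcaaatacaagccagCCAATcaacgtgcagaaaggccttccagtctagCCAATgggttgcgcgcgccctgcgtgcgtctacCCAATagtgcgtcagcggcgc
Cdk1: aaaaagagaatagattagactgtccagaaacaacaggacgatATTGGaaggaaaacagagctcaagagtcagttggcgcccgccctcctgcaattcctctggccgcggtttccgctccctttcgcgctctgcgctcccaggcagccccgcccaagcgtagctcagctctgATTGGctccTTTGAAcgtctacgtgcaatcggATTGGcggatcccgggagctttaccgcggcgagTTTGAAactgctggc
Ckap2l: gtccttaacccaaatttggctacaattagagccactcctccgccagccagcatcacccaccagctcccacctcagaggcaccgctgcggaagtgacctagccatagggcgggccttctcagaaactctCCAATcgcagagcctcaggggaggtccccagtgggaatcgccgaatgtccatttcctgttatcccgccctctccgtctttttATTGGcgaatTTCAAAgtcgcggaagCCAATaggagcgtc

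Of the 42 tested mitosis genes with a RefSeq promoter, 15 (35.7%) held the CHR core, 29 (69.0%) held the CCAAT box and 12 (28.6%) held both. Among the 9869 tested genes with a promoter the shares were 11.2%, 36.9% and 4.36%, and among all 27025 RefSeq promoters they were 16.3%, 34.5% and 5.73%. Of 29 replication genes with a promoter 18 held the CCAAT box and 4 the CHR core. A match describes the letters in the window and is not evidence of a bound site.

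Cdc20, which activates the anaphase-promoting complex, measured 0.740, 0.578, 0.583 and 0.734 CPM at 0.3 and 3.32, 3.62, 4.51 and 4.32 CPM at 3.0 mg/kg-day, a log2 fold change of 2.57 (SE 0.21, adjusted p = 0.00023). Ccnb1, the cyclin that starts mitosis, measured 0.793, 0.626, 0.729 and 0.681 CPM at 0.3 and 5.28, 6.35, 5.60 and 8.97 CPM at 3.0, a log2 fold change of 3.20 (SE 0.23). Both genes had values at 0.3 mg/kg-day within a narrow band and no overlap between the doses. Ccnb2 and Cdk1, the partner cyclin and the kinase, rose by 2.48 and 2.26, the spindle gene Tpx2 by 2.33, Ckap2l by 2.86 and the proliferation marker Mki67 by 2.25. The kinase gene Nek2, outside the list, rose by 2.06. The 5 genes not called were Cdca8, Kif20b, Espl1, Pttg1 and Cks2, with log2 fold changes between 0.79 and 1.76.

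**Figure D3:**
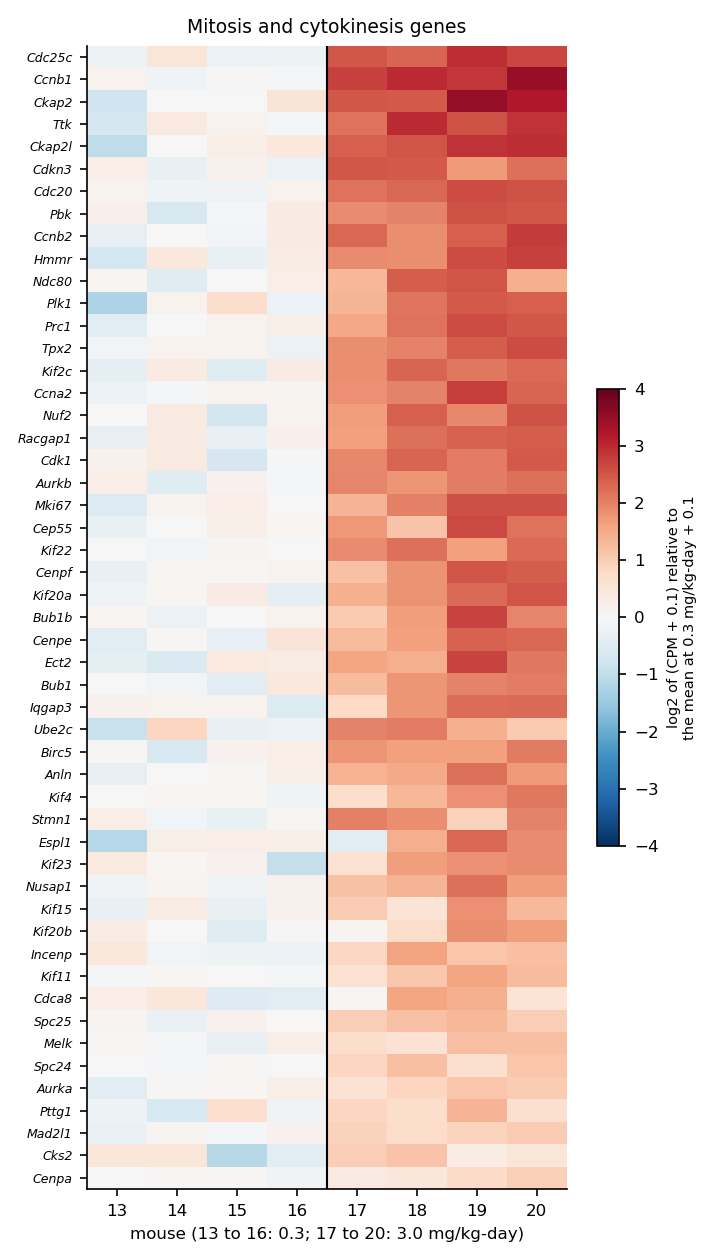
Rows are the 51 mitosis and cytokinesis genes ordered by fold change and columns the 8 mice, and colour is the log2 of CPM plus 0.1 relative to the 0.3 mg/kg-day mean plus 0.1. The 4 columns at 3.0 mg/kg-day are red for nearly every gene, mouse 17 being the palest in several rows.

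Of 35 tested genes of DNA replication and S phase 16 were higher and 0 lower, with a median of 0.69. Top2a, the topoisomerase that untangles sister chromatids, measured 3.75, 5.20, 4.23 and 5.71 CPM at 0.3 and 11.9, 16.1, 19.3 and 23.2 CPM at 3.0 mg/kg-day, a log2 fold change of 1.90 (SE 0.21). The helicase genes Mcm6, Mcm5, Mcm2 and Mcm4 rose by 2.08, 1.60, 1.16 and 0.85, the loading factor gene Cdc6 by 2.70 and the sliding clamp gene Pcna by 0.60. The list's count was 9 without mouse 13, 8 without mouse 14, 10 without mouse 18, 8 without mouse 20 and 19 without mice 15 and 19. Of 26 genes of growth entry, 3 were higher and 1 lower (15.4% called, against 5.14% of all tested genes). Foxm1, the transcription factor of mitotic genes, rose by 1.62, E2f2 by 0.80 and Cdkn2c by 0.88, and Ccnd2 fell by 0.49. The higher count was 1 without mouse 14, 16 or 20 and 6 without mouse 19, and Ccnd2 was called only with all 8 mice or without mouse 19 among the settings that leave out 1 mouse. Ccnd1, cyclin D1, measured 34.7, 31.8, 33.0 and 36.9 CPM at 0.3 and 34.6, 34.6, 67.8 and 60.1 CPM at 3.0 mg/kg-day. Mice 17 and 18 were thus level with the lower dose and mice 19 and 20 were not, and the gene did not pass the test (adjusted p = 0.176).

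Among 21 p53 targets 3 were higher, Cdkn1a, Gdf15 and Fas, and 0 lower, Fas losing its call without mouse 13, 14, 17, 18 or 20. The share called was 14.3%, against 5.14% of all tested genes. Cdkn1a, the cell cycle inhibitor p21, measured 0.846, 0.722, 0.631 and 0.472 CPM at 0.3 and 2.50, 5.28, 7.41 and 6.79 CPM at 3.0 mg/kg-day, a log2 fold change of 3.03 (SE 0.35, adjusted p = 0.00129). The vehicle mice measured 2.02 ± 0.62 CPM (SD, n = 4), above all 4 mice at 0.3 mg/kg-day. The stress hormone gene Gdf15 rose by 1.38, from 4.33 ± 0.47 to 11.3 ± 2.65 CPM (SD, n = 4).

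Markers of immune cells, which also divide, were looked at beside these genes. Of 13 tested Kupffer cell and macrophage markers edgeR called 0 (1 at an unadjusted p under 0.05) and DESeq2 called 1, with list sums of 662 to 841 CPM at 0.3 and 656 to 728 CPM at 3.0 mg/kg-day. Of the T and NK cell markers 8 of 16 passed the filter and 0 were called (0 at an unadjusted p under 0.05), with sums of 10.5 to 12.7 and 8.55 to 13.7 CPM, and of 8 tested B and plasma cell markers 0 were called (1 at an unadjusted p under 0.05), with sums of 16.7 to 25.1 and 20.9 to 33.3 CPM. DESeq2 and limma-voom called 0 in these last 2 lists. No marker of these lists was at 0 in all 8 mice. Among neutrophil and monocyte markers 1 of the 3 tested, S100a8, rose by 2.02, with sums of 5.35 to 6.99 and 6.88 to 8.99 CPM. Their part in the division genes was not tested, and in whole liver more RNA per cell and more cells of a kind cannot be told apart.

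Genes that differ between the sexes in mouse liver were examined because the pulses of growth hormone that set them act through STAT5. Of 25 tested male-biased genes 6 were higher and 0 lower, with a median of 0.32, and between 6 and 8 were called with any 1 mouse left out and 10 without mice 15 and 19. Besides Cyp4a12a they were Elovl3, which elongates fatty acids, Gstp1 and the urinary protein genes Mup7, Mup1 and Mup20. Mup7 measured 83.6, 51.1, 82.2 and 65.9 CPM at 0.3 and 153, 413, 498 and 215 CPM at 3.0 mg/kg-day, a log2 fold change of 2.18 (SE 0.34). Its vehicle mean was 132 ± 52.3 CPM (SD, n = 4), above the mice at 0.3. Mup16, from the same family, rose by 1.80 from 40.4 ± 6.80 CPM, with 98.9 ± 50.9 CPM in the vehicle mice.

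Of 35 female-biased genes 4 were lower and 2 higher, with a median of -0.25. The lower ones were the magnesium transporter gene Nipal1, the monooxygenase gene Fmo2 and the prolactin receptor gene Prlr, at -1.27, -0.89 and -0.49, with Acot3 (above), and the higher ones were the sulfotransferases Sult2a1 and Sult2a2, at 1.03 and 0.60. The lower count was 1 without mouse 13, 16, 18 or 20, 0 without mouse 14 and 2 without mouse 15, and 10 were lower and 3 higher without mice 15 and 19. The higher count was 0 without mouse 13, 14, 15 or 20, and 0 with limma-voom, with library totals and in the fit of all 20 mice. DESeq2 called 2 higher and 10 lower. Cyp2c69 measured 81.1 ± 23.8 and 48.5 ± 23.3 CPM at the 2 doses, against 452 ± 161 CPM in the vehicle mice (SD, n = 4), and did not pass the test. Of 15 growth hormone and STAT5 genes 2 were lower, Bcl6 and Prlr, and 0 higher. Bcl6, a repressor that STAT5 holds down, fell by 1.22 (SE 0.27, adjusted p = 0.0298) and lost the call without mouse 13, 14, 17, 18 or 20, and Prlr without mouse 13, 14, 15, 16, 18 or 20, while 4 genes of the list were lower without mouse 19. With all 20 mice in the fit 1 gene of the list was lower. Igf1 measured 745 ± 34.6 and 586 ± 48.4 CPM and Socs2 measured 14.1 ± 5.41 and 9.18 ± 3.69 CPM (SD, n = 4), with adjusted p of 0.093 and 0.305.

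Of 20 genes of the circadian clock 9 were lower and 0 higher, with a median of -0.63, namely Usp2, Nr1d1, Hlf, Per3, Per2, Bhlhe40, Cry2, Tef and Rora, at between -1.02 and -0.50. Nr1d1, the repressor REV-ERB alpha, measured 64.2, 71.9, 56.4 and 54.9 CPM at 0.3 and 43.8, 33.5, 31.8 and 33.9 CPM at 3.0 mg/kg-day, a log2 fold change of -0.79 (SE 0.13, adjusted p = 0.00869). Cry2, a repressor of the clock, measured 65.0 ± 3.86 and 42.6 ± 4.07 CPM and the output factor Hlf 66.3 ± 10.2 and 38.7 ± 4.84 CPM (SD, n = 4). The activator genes Arntl and Npas2 had log2 fold changes of 0.70 and 1.38 and did not pass the test, mouse 17 lying at or below the lower dose in both. The lower count was 3 without mouse 13, 14, 16, 18 or 20, 4 in the fit of all 20 mice and 11 without mice 15 and 19. The labels give dosing in the afternoon, and the hour of tissue collection was not known here.

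Of 14 tested immediate early and heat shock genes 2 were lower and 1 higher. Egr1, an early growth factor response gene, measured 18.6, 29.8, 20.1 and 10.2 CPM at 0.3 and 5.72, 7.29, 3.63 and 2.02 CPM at 3.0 mg/kg-day. It had the largest fall among called genes with a mean of 10 CPM or more, -2.08 on the log2 scale (SE 0.38, adjusted p = 0.0126), and the call held under all 20 alternative settings. Junb was lower by 0.91 on the log2 scale, a call lost without mouse 13, 14, 15, 18 or 20, and Hsp90aa1 was higher by 0.62, a call lost without mouse 13, 14, 15, 18 or 20. Among the other large falls, Il6ra, the interleukin-6 receptor, dropped from 51.3 ± 5.74 to 23.1 ± 5.83 CPM (SD, n = 4), a log2 fold change of -1.15 (SE 0.17), and Fnip2, a partner of folliculin, from 104 ± 14.0 to 52.7 ± 9.13 CPM, at -0.98 (SE 0.14). The glutamate transporter gene Slc1a2 was at -1.15, the semaphorin receptor gene Plxnb1 at -1.15 and the retinol dehydrogenase gene Rdh9 at -1.05. Slc1a2 lost its call without mouse 14 or 16, Plxnb1 without mouse 14, and Rdh9 without mouse 13, 14, 15, 16, 18 or 20.

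In both sterol and fat synthesis 14.8% of the genes were called, against 5.14% of all tested genes. Of 27 cholesterol synthesis genes 4 were higher (Mvd, Idi1, Fdft1 and Fdps, at 0.82, 0.70, 0.61 and 0.58) and 0 lower. The count was 1 without mouse 13, 14, 16, 18 or 20, 2 in the fit of all 20 mice, 7 without mouse 19 and 11 without mice 15 and 19. Of 27 lipogenesis genes 3 were higher, Mogat1, Pnpla3 and Elovl3, at 1.98, 1.88 and 1.49, and 1, Srebf1, was lower, while the list's median was -0.01. Pnpla3 lost its call without mouse 14, 16 or 20. Of 20 bile acid genes edgeR called 0, DESeq2 called 2 and limma-voom 0. At an unadjusted p under 0.05 there were 4 of the 20, against 3096 of all 14422 tested genes. Cyp7a1, the rate-limiting enzyme of bile acid synthesis, measured 47.9 ± 7.42 and 28.2 ± 11.7 CPM (SD, n = 4, adjusted p = 0.139 by edgeR).

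Among genes tied to position in the lobule, 17.4% of the pericentral and 5% of the periportal genes were called, against 5.14% of all tested genes. Of 23 pericentral genes 3 were lower (Slc1a2, Lgr5 and Znrf3, the last 2 being parts of WNT signalling) and 1 was higher (Aldh1a1), with a median of -0.40. The lower count was 1 without mouse 13, 18 or 20, and 0 without mouse 14 or 16. It was 9 without mice 15 and 19. In 10 of the 23 pericentral genes the groups did not overlap and the values at 3.0 mg/kg-day were below those at 0.3, and in 1 they were above. Over all tested genes 7.48% lay below in this way. At an unadjusted p under 0.05 there were 13 pericentral genes, and DESeq2 called 9 lower and 1 higher. Glul, glutamine synthetase of the innermost cells, measured 694, 575, 558 and 572 CPM at 0.3 and 489, 504, 287 and 309 CPM at 3.0 mg/kg-day. Its groups did not overlap and its adjusted p was 0.102. Of 20 periportal genes 1 was lower, Pigr, a call lost with any mouse but mouse 19 left out, and 2 were higher and 3 lower without mice 15 and 19. Of 34 urea cycle and amino acid genes edgeR called 0, DESeq2 called 5, all lower, and limma-voom called 1. At an unadjusted p under 0.05 there were 8 of the 34, against 3096 of all 14422 tested genes. Albumin (Alb) measured 115500 ± 5890 and 88140 ± 14030 CPM (SD, n = 4) and did not pass the test (adjusted p = 0.374).

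Transcript length moved with the comparison over all genes. Among the 13990 tested genes (97.0%) with a GENCODE M21 transcript, the Spearman correlation across genes between the log2 fold change and the longest transcript was -0.415. With these genes cut into 5 classes of nearly equal number, the median log2 fold change was 0.22 in the class of shortest transcripts (62 to 1605 bases) and -0.18 in that of the longest (5028 to 123179 bases), with 149 genes higher and 4 lower in the former and 32 higher and 160 lower in the latter. Mice 17, 18 and 20 lay above the mean of the 8 libraries in the class of shortest transcripts, by 0.203, 0.262 and 0.136, and library 19 lay below it at -0.193, as did library 15 at -0.238. With this trend removed from each library, an alternative chosen after the data were seen, 535 genes were called, 376 higher and 159 lower, and 449 of the 742 were among them in the same direction.

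**Figure D4:**
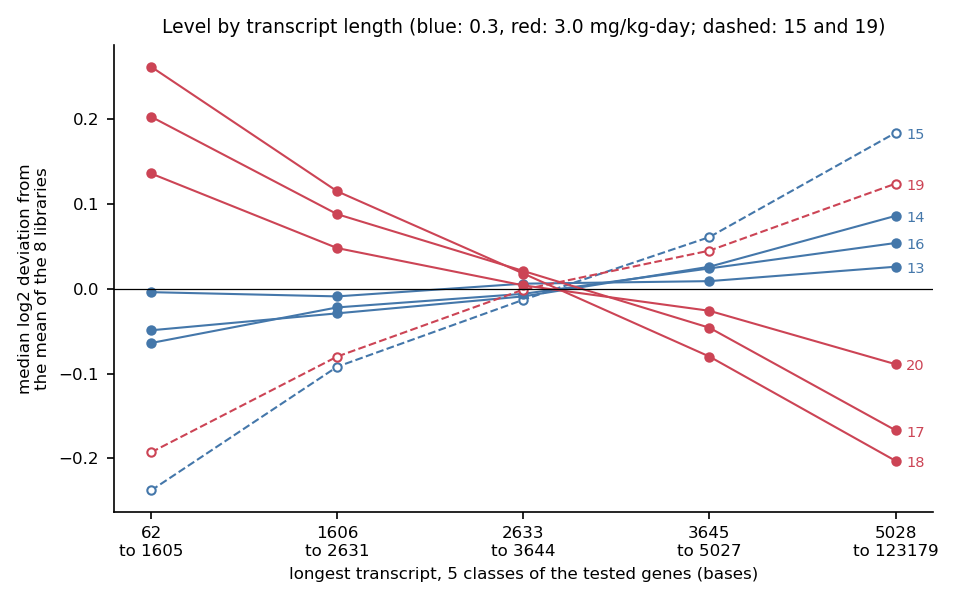
Lines are the 8 libraries (blue, 0.3; red, 3.0 mg/kg-day; dashed, libraries 15 and 19) and give the median log2 deviation from the mean of the 8 libraries in 5 classes of the tested genes by longest transcript. The 3 solid red lines slope down from short to long transcripts, and the dashed red line slopes up with the blue ones.

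With the trend removed, the mitosis list had 44 of 51 genes higher (median 2.14), the replication list 13 of 35, CAR targets 15 of 31, PXR targets 6 of 18, NRF2 targets 10 of 25, conjugation genes 11 of 42 and omega oxidation 4 of 10. Clock genes had 5 of 20 lower (median -0.55), peroxisomal genes 2 higher and 1 lower, female-biased genes 0 higher and 5 lower and cholesterol genes 1 higher. Ppara, Egr1, Nr1d1, Cry2 and Hlf kept their calls. Slc1a2 and Plxnb1 lost theirs at log2 fold changes of -0.86 and -0.89, from -1.15 each. Prlr went from -0.49 to -0.23, Prox1 from -0.48 to -0.27 and Znrf3 from -0.55 to -0.40, and these 3 lost their calls too.

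Of 36 cytosolic ribosomal protein genes, with a median longest transcript of 1259 bases, 11 were higher and 0 lower (median 0.58). Rpl35 measured 9.30, 8.43, 10.6 and 6.97 CPM at 0.3 and 16.7, 18.7, 15.6 and 17.5 CPM at 3.0 mg/kg-day, a log2 fold change of 0.95 (SE 0.14). With the length trend removed 3 of 36 were higher, with a median of 0.42, Rpl35 among them. The count was 6 without mouse 13, 3 without mouse 14, 7 without mouse 15, 6 without mouse 16, 7 without mouse 17, 5 without mouse 18, 24 without mouse 19, 4 without mouse 20 and 29 without mice 15 and 19. It was 2 in the fit of all 20 mice. Of 35 proteasome genes 8 were higher and 0 lower (median 0.34), and 5 with the trend removed (median 0.22). That count was 3 without mouse 13, 2 without mouse 17, 0 without mouse 14, 16, 18 or 20, 16 without mouse 19 and 25 without mice 15 and 19. It was 4 in the fit of all 20 mice. Of 33 respiratory chain genes 1 was higher, Sdhd at 0.39, a share of 3.03%, near the 3.21% of all tested genes. The respiratory count was 0 when the trend was removed and in the fit of all 20 mice. It was 13 without mice 15 and 19, a setting in which 1454 of 14431 tested genes were higher. The part of transcript length in these counts was not tested beyond that removal.

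**Figure D5:**
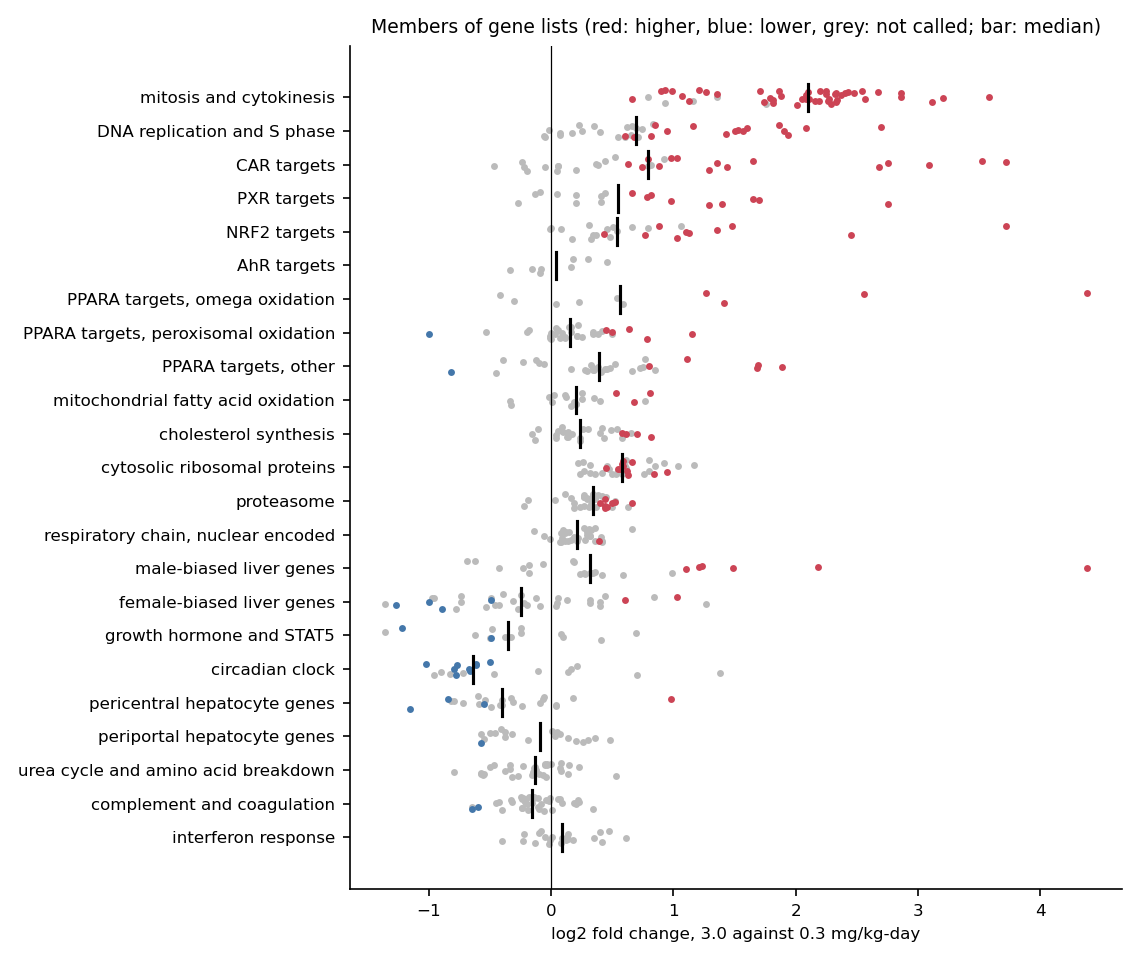
Each row is a gene list and each point a tested member, placed by its log2 fold change at 3.0 against 0.3 mg/kg-day (red, called higher; blue, called lower; grey, not called), with a bar at the median. The mitosis row lies wholly to the right of 0 around its median of 2.10, and the clock row has its called genes to the left.

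Of 14 markers of the endothelium that lines the sinusoids 5 were lower and 0 higher (median -0.35), namely Flt4, Ptprb, Stab2, Dnase1l3 and Kdr, and the list summed to 638 to 711 CPM at 0.3 and 489 to 529 CPM at 3.0 mg/kg-day. Stab2, a scavenger receptor, measured 49.9 to 57.7 CPM in the mice at 0.3 and 33.7 to 37.6 CPM in those at 3.0 mg/kg-day, a log2 fold change of -0.56 (SE 0.09). Of 14 stellate cell and fibroblast markers 2, Reln and Ecm1, were lower, at -0.50 and -0.56. The median longest transcripts of these lists were 4350 and 4069 bases, and with the length trend removed 2 and 1 markers were lower. The endothelial count was 3 without mouse 13, 17 or 18, 2 without mouse 14 or 20 and 9 without mouse 19, and without mice 15 and 19 it was 10, with 3 stellate markers lower. With all 20 mice in the fit 4 endothelial and 0 stellate markers were lower. Of 7 tested cholangiocyte markers 0 were called by edgeR, DESeq2 or limma-voom, and 1 had an unadjusted p under 0.05. The part of these cells in the 279 lower genes was not tested.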

How the data were processed

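Liver RNA of 20 mice was sequenced on an Illumina NextSeq 500, and the 8 mice at 0.3 and 3.0 mg/kg-day were compared. The deposited table gives each library a column of expected counts, which the authors made with Partek on the genome build GRCm38.p5, per the submitters' processing notes. The unit was read from the values (58.0% whole, column totals that differ). The aligner, the annotation, the counting method and its use of strand are unknown here. Of 22103 rows, 21 carry names in the form of dates and are not named.

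Expected counts were rounded, rows were filtered with filterByExpr (14422 kept, 7681 left out), and the 8 libraries were scaled with TMM factors and tested with edgeR 4.0.16 in R 4.3.3 (quasi-likelihood test, 6 residual degrees of freedom, biological coefficient of variation 0.1815, Benjamini-Hochberg adjustment over all tested rows). The SE is the absolute log2 fold change divided by the square root of F. Replicate libraries were compared by chi-square per degree of freedom over genes, which lay between 8.85 and 115.89, so none was a repeat deposit. List medians by mouse and the deviations of libraries by transcript length use the log2 of CPM plus 0.5. The components use log2 CPM with a prior count of 2. Tested on simulated data for this comparison (14113 genes), edgeR called 98 of 99 genes changed 4-fold, 79 of 100 changed 2-fold and 9 unchanged genes. These counts hold for the simulated data only. Whether they carry over to data with libraries that stood apart and a length trend was not tested.

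This choice of doses and the 40 process and 13 marker lists were made with earlier results of these data known, and 100 of 913 process genes occur in several lists. Genes were named by rule, as the 12 largest rises and falls among called genes of 10 CPM or more whose groups do not overlap, up to 3 called members of smallest p per list, and a set of sentinel genes. Other genes were named after their values were seen, most of them so that each short count lists its members. Of the sentinels Fgf21 did not pass the filter. Coordinates and transcript lengths are from GENCODE M21, in which 20992 symbols were found, and promoters are from RefSeq.

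The alternatives were RLE factors, library totals, no filter, 1 CPM in 4 libraries, DESeq2 1.42.0, limma-voom (limma 3.58.1), a fit of all 20 libraries, a term for the libraries that stood apart, and each mouse left out. The 2 alternatives that removed the length trend (a lowess per library of span 0.3 on log2 CPM with a prior count of 2) were added after the data were seen. Library numbers are not shared between the doses, so no pairing was made.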

Additional observations from a re-analysis of the deposited data

Results flagged for a closer look

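In 10 of 232 groups of 4 mice examined (each named gene at each dose), 1 mouse lay so far from the others that its gap to the nearest, divided by the group's range, was above Dixon's critical value for 4 samples. Chance flags about 1 group in 20. At 3.0 mg/kg-day these were Gm26526 in mouse 20 (6.67 CPM, the highest), Pdk4 in mouse 17 (7.52 CPM, the lowest), Idi1 in mouse 20 (403 CPM, the highest), Foxm1 in mouse 19 (3.47 CPM, the highest) and Cry2 in mouse 17 (48.7 CPM, the highest). At 0.3 mg/kg-day they were Pnpla3 (2.7 CPM), Fmo2 (110 CPM) and Glul (694 CPM) in mouse 13, and Cyp8b1 (445 CPM) and Nr1i2 (101 CPM) in mouse 15, each the highest of its group. Gm26526, Idi1, Pdk4, Foxm1, Cry2, Pnpla3 and Fmo2 were called, and in each of them all 4 mice at one dose still lay on the same side of all 4 at the other.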

How the results depend on the processing

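Of 91 named genes that were called, 48 were called under all 20 alternatives and 0 changed sign. With 1 mouse left out 39 of the 91 lost the call under at least 1 such setting, and 70 were called with the length trend removed. The count of 742 genes (463 higher, 279 lower) became 2823 (1482 and 1341) with a term for libraries 15 and 19, and 2603 (1454 and 1149) without them. With all 20 libraries in 1 fit 131 were lower, and with a term there for libraries 3, 11, 15, 19 and 23 the count was 1862 (1031 and 831). DESeq2 called 1289 (599 lower). With the length trend removed 159 were lower, and with the term for libraries 15 and 19 added the count was 2005 (1125 and 880). With 1 mouse left out it lay between 240 (without mouse 14) and 1891 (without mouse 19), with 193 to 1064 higher and 47 to 827 lower. These fits have fewer mice or other terms, and the causes of the other shifts were not tested. The counts by RLE factors, library totals, no filter, a 1 CPM filter and limma-voom were within 1.5 times the 742. At an unadjusted p under 0.05 there were 3096 of the 14422 tested genes.

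In 4 genes that were not called the sign changed. Cyp1a2 lay between -0.2133 and 0.0347 with 1 mouse left out, Cyp8b1 between -0.5622 and 0.0284, Saa1 between -0.8883 and 0.3236 and Nfe2l2 between -0.1753 and 0.2328. Saa1, at 0.01 in the comparison reported, was also -0.033 with the term for libraries 15 and 19, -0.0697 with all 20 libraries and the term, -0.0314 with library totals, -0.0059 with DESeq2, -0.1415 with limma-voom, -0.0893 with the length trend removed and -0.1059 with that and the term. Nfe2l2 was -0.0124 without libraries 15 and 19 and -0.0085 with the length trend removed and the term. The cause was not tested. No paired analysis was made, because the 2 groups share no replicate numbers and the labels name no pairs. The place in the group that libraries 15 and 19 share was fitted only as the term for these libraries. With 4 mice a side and a biological coefficient of variation of 0.1815, changes of 2-fold or less can be missed. In the simulated data edgeR called 79 of 100 genes changed 2-fold, and whether that share holds in the real libraries was not tested.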

Other observations

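Other processes were measured in the same mice. The share called was 17.6% in iron handling, 18.2% in glucose production and glycogen and 3.85% in the acute phase. It was 5% in complement and coagulation and 8.33% in apolipoproteins and lipoprotein assembly. Over all tested genes the share was 5.14%, so the acute phase and complement counts in particular were near it. Of 17 genes of iron handling 3 were higher, Tfrc (the transferrin receptor), Hfe and Ftl1 (ferritin light chain), at 1.30, 0.79 and 0.59, and 0 were lower. Tfrc measured 15.4, 10.5, 13.1 and 24.4 CPM at 0.3 and 30.6, 24.7, 46.9 and 54.1 CPM at 3.0 mg/kg-day, and its call was lost without mouse 13, 14, 15 or 20. The iron count was 1 without mouse 13, 14, 15, 16 or 18, 1 in the fit of all 20 mice and 0 without mouse 20. Of 22 genes of glucose production and glycogen 3 were lower, Ppargc1a, Irs2 and Foxo1, at -0.82, -0.70 and -0.55, and Khk was higher at 0.51. Irs2 lost its call without mouse 14, 18 or 20 and Khk without mouse 13, 14, 15, 16, 18 or 20, and 6 genes of the list were lower without mouse 19. With all 20 mice in the fit 1 gene of the list was lower and 0 were higher. Of 26 acute phase genes 1 was higher, Hpx at 0.56, which lost the call with the length trend removed and without mouse 13, 14, 16, 17, 18 or 20. The count was 5 without mouse 19 and 6 without mice 15 and 19. Saa1 ranged from 7.67 to 79.5 CPM at 0.3 and from 13.6 to 122 CPM at 3.0 mg/kg-day. Of 40 complement and coagulation genes 2 were lower, C4b at -0.65 and F5 at -0.60, neither called with the length trend removed. C4b also lost its call without mouse 14, 15, 16, 18 or 20, and 4 genes of the list were lower without mouse 19. Of 24 apolipoprotein and lipoprotein genes Lrp1 was lower, at -0.86, and Apobec1 higher, at 0.52. With the length trend removed neither was called (-0.58 and 0.45, adjusted p = 0.0526 and 0.0523 by edgeR), and Apobec1 also lost its call without mouse 13, 14 or 20. Without mice 15 and 19, 3 were lower and 3 higher.

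Of 25 genes of the ER stress and ATF4 response, 23 of the interferon response, 9 of the pentose phosphate pathway and 5 tested fetal liver genes, edgeR and limma-voom called 0 in each. At an unadjusted p under 0.05 edgeR had 8, 4, 5 and 1 of them, and DESeq2 called 1, 2, 2 and 0. The genes with the largest fold changes at low level included Krt4, a keratin of stratified epithelium, at 0, 0.193, 0.0971 and 0.157 CPM in the mice at 0.3 and 1.74, 3.32, 4.04 and 3.87 CPM in those at 3.0 mg/kg-day, and Pnliprp1, a lipase relative, at 0.0529, 0.0482, 0.243 and 0.210 CPM and 1.31, 2.19, 3.47 and 5.66 CPM. Of 8 pancreatic acinar markers 1 had a row in the table, at 3.04 to 3.79 CPM at 0.3 and 2.13 to 3.97 CPM at 3.0 mg/kg-day, and it was not called by any of the 3 tools or at an unadjusted p under 0.05.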
